A study of Mus musculus with 2 samples.

Results

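The cells described here were A20 tumour cells whose transcripts marked them as being in G2/M, the stretch of the cell cycle between the end of DNA replication and cell division. A20 is a lymphoma line of B cell origin, derived from a BALB/c mouse. Barcodes with under 10% of UMIs from mitochondrial genes, at least 200 genes, at least 1 UMI of Cd79a (a signalling chain of the B cell receptor), and none of Cd3d, Cd3e, Cd3g or Lyz2 counted as A20 cells. Each was scored by its UMIs per 10000 in 3 sets. The G2/M set held 8 genes, namely Ube2c, Plk1, Cdc20, Ccnb1, Aurka, Cenpf, Hmmr and Cenpa. The S phase set held the 55 genes whose symbols start with Hist1h, and the G1/S set held the 6 genes Ung, Cdc6, Mcm3, Mcm6, Gins2 and Dut. Scores were ranked over the A20 cells of both libraries, and a cell was taken as G2/M where its G2/M rank was at least 0.8 and above its other 2 ranks. Cells were thus chosen by their measured levels of these 3 gene sets, which are a description of the choice and no finding. The rule gave 655 G2/M cells of 3945 A20 cells and of 4975 barcodes.

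The study set 1 library from TAK-981-treated tumours beside 1 library from vehicle-treated tumours. TAK-981 is a small-molecule inhibitor of the SUMO-activating enzyme, which loads the ubiquitin-like protein SUMO for attachment to other proteins. Balb/c mice carrying subcutaneous A20 tumours in the flank were given TAK-981 at 7.5 mg/kg or the cyclodextrin vehicle 20% HPbCD, both intravenously, and tumours were taken after 8 h. The mice's age, and how many mice stand behind each library, were not stated in the labels. Host B cells share the markers used and were not separated from A20 cells.

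In G2 a cell makes the proteins it needs to divide, and the kinase CDK1, bound to cyclin B, then drives it into mitosis. Aurora and polo-like kinases build the spindle, kinetochores attach chromosomes to it, and the anaphase-promoting complex with its activator CDC20 ends mitosis by destroying cyclin B and securin. Many of these genes share promoter elements known as CCAAT boxes and the CHR (TTTGAA), through which they are held down early in the cycle and switched on late. SUMO is attached to many centromere and chromosome proteins, and loss of SUMO attachment is known to set off type I interferon signalling.

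The TAK-981 library was the shallower of the pair, with a median of 11840.5 UMIs per barcode against 19608 in the vehicle library, and 15.7% against 4.81% of its barcodes reached the mitochondrial limit. Among G2/M cells the medians were 17005 and 23624.5 UMIs, 3470 and 4173 genes, and 2.29% and 1.81% mitochondrial UMIs. With each cell thinned to 4000 UMIs, G2/M cells held a median of 1445 and 1459 genes, against 1478 and 1463 in the other A20 cells. The libraries shared 11 barcode sequences, of which 0 and 2 belonged to G2/M cells. With 1 library per arm, the drug and the library cannot be told apart, and no test across arms exists. Levels are therefore given as CPM, the UMIs of a gene summed over a class of cells and scaled to the class total, and ratios as log2 with an exact 95% binomial interval that covers counting error only.

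G2/M cells made up similar shares of A20 cells in both libraries, and which share was higher turned with the settings. TAK-981 gave 289 of 1754 (16.5%, 95% exact interval 14.8 to 18.3%) and vehicle 366 of 2191 (16.7%, 15.2 to 18.3%). The S phase class, where the Hist1h rank was at least 0.8 and highest, took 16.4% and 15.02%. The G1/S class held 229 cells (13.1%, 11.5 to 14.7%) in the TAK-981 library against 438 (20.0%, 18.3 to 21.7%) in the vehicle library. Cells in no class made up 54.1% and 48.3%. These intervals cover the counting of cells within each library and not the spread between animals. Thinned to 4000 UMIs a cell and ranked again, the G2/M shares were 14.4% and 15.2%, and with a rank threshold of 0.9 they were 10.5% and 8.58%.

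The class is a range of the score above a set rank, not a cell type. The median score of G2/M cells was 19.6 UMIs per 10000 after TAK-981 (lowest 9.71, highest 68.4) and 16.6 after vehicle (9.69 to 60.5). Other A20 cells had medians of 1.69 and 2.1, and S phase cells stood between them at 5.44 and 5.34. The 48 G2/M cells with ranks up to 0.82 scored 9.69 to 10.6, and the 78 A20 cells just under the threshold scored 8.80 to 9.69. A further 135 cells reached rank 0.8 on G2/M genes but ranked higher elsewhere, 118 of them on histone genes and 17 on G1/S genes. Conversely, 50 (17.3%) of the TAK-981 and 39 (10.7%) of the vehicle G2/M cells also reached rank 0.8 on histone genes.

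**Figure D1:**
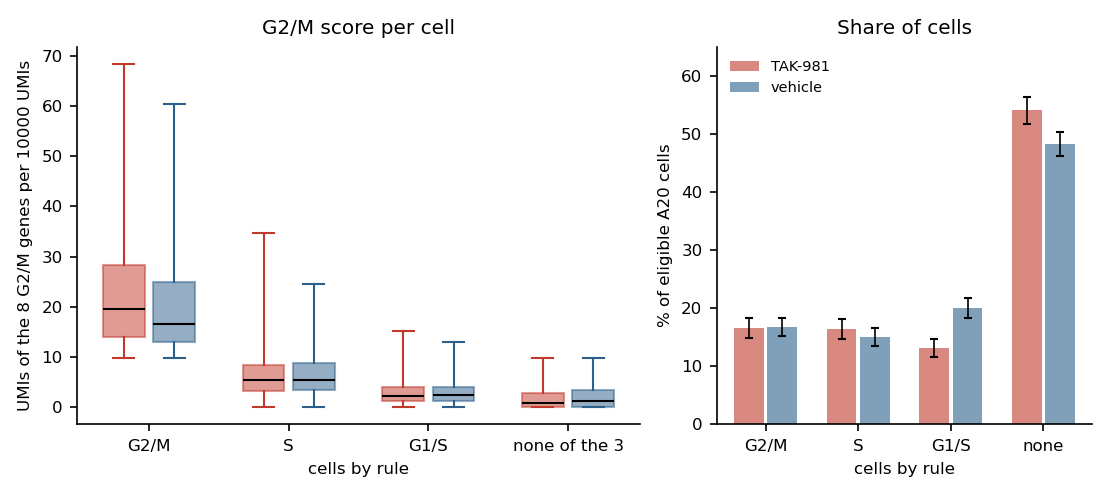
G2/M score per cell in UMIs per 10000 by class and library (boxes are quartiles with the median, whiskers run from lowest to highest), and the share of A20 cells in each class with exact 95% intervals. G2/M cells scored from 9.69 upwards and took 16.5% (TAK-981) and 16.7% (vehicle) of A20 cells, while the G1/S share was 13.1% against 20.0%.

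The 8 genes of the rule act at successive steps of division. Promoter windows of 300 bases (250 before and 50 after the RefSeq start, GRCm38.p6) are printed for 4 of them, to show where the CHR and CCAAT letters lie in genes with and without the CHR. Capitals mark TTTGAA or CCAAT on either strand, so TTCAAA and ATTGG are marked too. Cdc20 lies at chr4:118437294-118437593, Hmmr at chr11:40733388-40733687, Cenpf at chr1:189688037-189688336 and Ccnb1 at chr13:100786437-100786736, all on the minus strand and printed along the gene's own strand. The first 3 hold TTTGAA close to the start, and Ccnb1 is shown as the member without it.
Cdc20: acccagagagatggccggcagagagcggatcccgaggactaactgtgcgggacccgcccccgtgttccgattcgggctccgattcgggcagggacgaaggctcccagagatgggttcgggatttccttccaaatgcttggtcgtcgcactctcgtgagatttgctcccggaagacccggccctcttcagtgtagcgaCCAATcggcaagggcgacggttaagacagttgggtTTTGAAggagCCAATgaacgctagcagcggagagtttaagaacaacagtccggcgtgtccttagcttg
Hmmr: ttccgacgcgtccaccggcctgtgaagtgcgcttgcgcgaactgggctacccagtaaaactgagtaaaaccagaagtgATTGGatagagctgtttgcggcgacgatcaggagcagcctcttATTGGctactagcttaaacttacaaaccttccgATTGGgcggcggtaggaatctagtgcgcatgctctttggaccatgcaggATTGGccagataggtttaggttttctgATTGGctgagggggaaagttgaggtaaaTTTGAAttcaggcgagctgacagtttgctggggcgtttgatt
Cenpf: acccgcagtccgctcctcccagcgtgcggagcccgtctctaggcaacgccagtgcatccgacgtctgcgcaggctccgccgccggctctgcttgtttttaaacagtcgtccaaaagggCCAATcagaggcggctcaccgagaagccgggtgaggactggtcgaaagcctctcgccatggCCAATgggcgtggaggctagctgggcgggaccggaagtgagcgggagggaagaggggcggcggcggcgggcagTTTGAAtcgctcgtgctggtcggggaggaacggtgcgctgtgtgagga
Ccnb1: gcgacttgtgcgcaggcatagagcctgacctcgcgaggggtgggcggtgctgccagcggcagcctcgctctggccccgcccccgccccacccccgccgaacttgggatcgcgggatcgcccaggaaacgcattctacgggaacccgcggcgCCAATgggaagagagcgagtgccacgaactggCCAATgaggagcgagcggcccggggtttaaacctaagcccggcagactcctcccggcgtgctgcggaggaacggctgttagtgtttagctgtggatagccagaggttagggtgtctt

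All 8 rule genes had a RefSeq window. CCAAT was found in 8 of 8 and TTTGAA in 7 of 8, against 37.4% and 17.9% of all 32851 windows in the table. The TTTGAA in Cdc20 begins 18 bases before the start, and those in Cenpf, Hmmr, Cenpa, Plk1 and Aurka begin 2, 8, 16, 30 and 32 bases after it. In Ube2c it lies on the other strand, 29 bases before the start. A match is only a string of letters, and its absence from the Ccnb1 window says only that these letters are not in that stretch.

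Ube2c, the E2 enzyme that works with the anaphase-promoting complex, carried the most UMIs of the rule set. It stood at 807 CPM in TAK-981 and 755 CPM in vehicle G2/M cells, against 87.3 and 91.5 CPM in other A20 cells. It alone gave 35.7% and 36.3% of the set's UMIs. Ccnb1, the cyclin B that activates CDK1, read 249 and 244 CPM against 33.4 and 39.7. Cdc20, the activator of the anaphase-promoting complex, read 249 and 261 CPM against 39.0 and 47.7. Plk1, the polo-like kinase of mitotic entry and spindle assembly, read 113 and 121 CPM against 14.5 and 17.1. The log2 ratios of the others over other A20 cells were, TAK-981 library first, 2.73 and 2.57 for Aurka (the spindle-pole Aurora kinase) and 2.53 and 2.17 for Cenpf (a large kinetochore protein). They were 2.38 and 2.22 for Cenpa (the centromeric histone H3 variant) and 2.12 and 1.85 for Hmmr (a spindle assembly factor). A median of 7 of the 8 genes was detected per G2/M cell in each library, and all 8 in 109 (37.7%) and 162 cells (44.3%). When cells were chosen with the other 7 genes, the gene left out still read from 3.42-fold (Hmmr, vehicle) to 7.24-fold (Ube2c, TAK-981) higher in the chosen cells.

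Outside the rule, 145 mitotic genes in 7 role lists were measured, that is, held at least 10 UMIs in the groups compared together. Members of these lists are expected from the label, and they are given as a check of it without a test. In the TAK-981 library 62 of 145 read at least 2-fold higher in G2/M cells than in other A20 cells, with 0 at least 2-fold lower and a median log2 ratio of 0.89. In the vehicle library 56 of 145 did, with 0 lower and a median of 0.77. Over all genes measured, 1.86% and 1.8% read at least 2-fold higher and 4.79% and 4.24% lower. Against S phase cells alone, the medians of the 145 genes were 0.00 and -0.02, with 8 and 6 genes at least 2-fold higher, where 1.52% and 1.07% of all genes were. Against G1/S cells they were 0.61 and 0.61, with 47 and 46 genes at least 2-fold higher, where 3.32% and 2.55% of all genes were. The wider mitotic set had a median near 0 between G2/M and histone-high cells.

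Of 29 genes for spindle factors and kinesins, 25 (TAK-981) and 22 (vehicle) read at least 2-fold higher in G2/M cells, where 1.86% and 1.8% of all genes did. The list's medians, 1.63 and 1.27, were the highest of the 7 roles. Depdc1b read log2 2.5 and 2.12 over other A20 cells. Tpx2, the activator and spindle targeting factor of Aurora A, read 2.07 and 1.74, and Kif2c, a kinesin that takes microtubules apart at centromeres, 1.99 and 1.89. Aspm and Nusap1, which organise spindle poles and spindle microtubules, read 1.86 and 1.59 and 1.85 and 1.71. Numa1, a spindle-pole protein with nuclear roles in interphase, read -0.07 and 0.17.

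Of 12 cytokinesis genes, 10 and 11 read at least 2-fold higher, where 1.86% and 1.8% of all genes did. Arhgef39 read log2 2.92 and 3.08. Prc1, which bundles the central spindle, read 1.88 and 1.78, and its motor partners Kif20a and Kif23 read 1.88 and 2.00 and 1.68 and 1.49. All 4 subunits of the chromosomal passenger complex passed 2-fold in both libraries. They were Aurkb, its kinase, at 1.30 and 1.11, Incenp, its scaffold, at 1.32 and 1.15, Birc5 at 1.24 and 1.06, and Cdca8 at 1.49 and 1.31.

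Of 18 kinase and cyclin genes, 9 and 8 read at least 2-fold higher, where 1.86% and 1.8% of all genes did. Among them were genes that drive entry into mitosis. Ccnb2 read log2 2.08 and 1.90, Cdk1 1.93 and 1.53, and Cdc25c, the phosphatase that removes CDK1's inhibitory phosphates, 2.35 and 1.97. The kinases that place those phosphates stood lower, with Wee1 at 0.47 and 0.40 and Pkmyt1 at -0.11 and -0.30. Ccna2, the cyclin of S phase and G2, stood between them at 1.37 and 1.16.

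Kinetochore, checkpoint and chromosome genes were less uniform. Over all genes 1.86% (TAK-981) and 1.8% (vehicle) read at least 2-fold higher. Of 35 kinetochore genes, 7 and 5 read at least 2-fold higher, among them Cenpe, the kinetochore kinesin, at log2 1.84 and 1.72 and Sgol2a, a protector of centromeric cohesion, at 1.87 and 1.83. Among 25 genes of the anaphase-promoting complex and spindle checkpoint, 5 did in each library. They included Pttg1 (securin) at 1.66 and 1.59, Fzr1 (the other activator of the complex) at 1.44 and 1.23 and Bub1b (a checkpoint kinase-like protein) at 1.43 and 1.28. A core subunit, Anapc2, read 0.00 and 0.07. Of 22 chromosome structure genes, 2 and 1 passed 2-fold, with Cdca2 at 1.62 and 1.38. In the vehicle library 1 gene of 22 does not set this list apart from all genes. The proliferation marker Mki67 read 0.95 and 0.59 and Top2a, the topoisomerase that untangles sister chromatids, 0.93 and 0.73. Of 11 tubulin and stathmin genes 2 passed 2-fold in each library, and Tuba1c read 1.84 and 1.62.

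**Figure D2:**
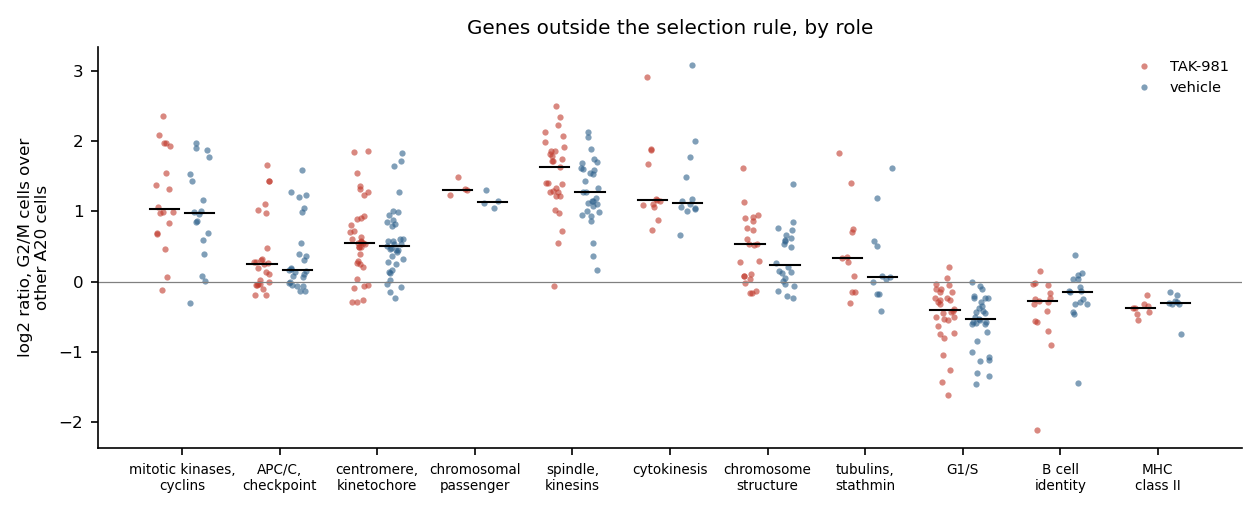
Log2 ratio of G2/M cells over other A20 cells for genes outside the rule, 1 point per gene and library, by role list, with medians as bars. The spindle list has the highest medians (1.63 and 1.27), and all MHC class II genes lie below 0.

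Among 130 windows of the genes outside the rule (117 of 145 genes matched), 61 (46.9%) held TTTGAA, 81 (62.3%) CCAAT and 47 (36.2%) both, against 6.95% of all windows with both. By role, TTTGAA was in 12 of 14 cytokinesis windows (85.7%), 16 of 27 spindle windows (59.3%), 10 of 18 chromosome structure windows (55.6%) and 5 of 11 kinase and cyclin windows (45.5%). It was in 11 of 33 kinetochore windows (33.3%) and 7 of 29 windows of the anaphase-promoting complex and checkpoint (24.1%). Of 32 windows of G1/S genes, 4 (12.5%) held TTTGAA and 19 (59.4%) CCAAT. In the rule genes and the genes outside it together, 59 of 84 TTTGAA matches (70.2%) began within 50 bases of the start, a stretch that makes up 33.3% of the window. The 57 genes outside the rule with TTTGAA had median log2 ratios over other A20 cells of 1.06 and 0.96, and the 60 without it 0.49 and 0.41.

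Of the transcription factors tied to this programme, Foxm1, which drives G2/M genes, read log2 1.13 and 0.95 in G2/M over other A20 cells. Mybl2, which acts with it through CHR promoters, read -0.17 and -0.54. Genes outside all 3 rule sets with the highest ratios in both libraries were led by Pif1, a DNA helicase, at 17.7 and 17.1 CPM in G2/M cells against 1.46 and 2.12 in other A20 cells (log2 3.61 and 3.01). Arhgef39, Gas2l3 (2.46 and 2.43), the CDK-associated phosphatase Cdkn3 (2.47 and 2.30), Depdc1b, Arhgap19 (2.13 and 2.11) and Prr11 (2.07 and 2.16) followed. Hmx2 (2.5 and 1.97) is a homeobox gene that lies beside Bub3, a checkpoint gene (1.11 and 1.05), in RefSeq. Whether reads of Bub3 were counted for Hmx2 was not tested. Gm10184 (1.95 and 1.91) is a gene model without an assigned role.

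At the other end stood genes of earlier cycle phases, some B cell surface genes and transcripts of host cells. Of 30 G1/S genes outside the rule, 28 (TAK-981) and 30 (vehicle) read below 0, where 62.5% and 57% of all genes did. Ccne1 and Ccne2, the cyclins of S phase entry, read -1.43 and -1.45 and -1.25 and -1.30. Cd22, an inhibitory receptor of B cells, stood at 6.67 and 8.06 CPM in G2/M cells against 28.8 and 21.9 CPM in other A20 cells (log2 -2.11 and -1.44). The chemokine receptor Ccr7 read -2.74 and -1.74, from 5 and 21 UMIs in G2/M cells. The lectin Lgals1 read -1.61 and -1.95, from only 6 and 4. Of its 86 UMIs in other A20 cells of the TAK-981 library, 29.1% sat in 1 cell. All 8 MHC class II genes read below 0 in both libraries, with Cd74, the invariant chain, at -0.43 and -0.32. Tyrobp, an adaptor of natural killer and myeloid cells, had the lowest ratio, with 1 and 2 UMIs in G2/M cells against 91 and 153 in other A20 cells. Over 18 host marker genes, G2/M cells held 10 and 15 UMIs in 10 and 11 cells (3.46% and 3.01%), 1.76 and 1.55 CPM. Other A20 cells held 378 and 314 UMIs in 41 and 64 cells, 14.1 and 7.25 CPM, with up to 139 in 1 cell. The part of these host transcripts in the lower ratios was not tested.

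Within G2/M cells, the mitotic genes outside the rule read close to each other in the TAK-981 and vehicle libraries. Of 145 genes outside the rule, 0 passed 2-fold in either direction, where 2.48% of 10429 genes measured in G2/M cells read at least 2-fold higher and 1.82% lower. These shares lean on genes with few UMIs. Of 8784 genes with at least 50 UMIs, only 63 read at least 2-fold higher and 29 lower, so 0 of 145 does not set the mitotic genes apart. The median log2 ratio of the 145 genes was 0.06, and 93 of 145 read above 0, where 51.2% of all genes did. Intervals lay above 0 for 40 and below 0 for 3, where those of all genes did for 12% and 10.4%. In other A20 cells the median of the same genes was -0.03. The ratio in G2/M cells exceeded that in other A20 cells for 103 of 145 genes, where 42.5% of all genes did. The interval of the difference lay above 0 for 40 and below 0 for 5, where it did for 5.12% and 6.6% of all genes. Which cells enter each class was set by related genes, so this difference between classes is a description. Of the rule genes, Ube2c (log2 0.10), Plk1 (-0.10), Cdc20 (-0.07), Ccnb1 (0.03), Aurka (0.03) and Hmmr (0.08) all read between -0.10 and 0.10. Cenpf read 341 against 275 CPM (0.31, 95% interval 0.23 to 0.40) and Cenpa 292 against 229 CPM (0.35, 0.26 to 0.45).

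Chromosome structure genes leaned higher in the TAK-981 library. Of 22 genes, 20 read above 0 in G2/M cells and 15 had an interval above 0, where 51.2% and 12% of all genes did. The median was 0.23. In other A20 cells 12 of 22 read above 0, where 60.8% of all genes did, with a median of 0.11. Mki67, which coats mitotic chromosomes, stood at 455 against 295 CPM in G2/M cells (0.63, 0.55 to 0.70), and its ratio was 0.27 in other A20 cells. The cohesin subunit Stag1 read 0.49, the condensin II subunits Ncapd3 and Ncaph2 0.46 and 0.38, and Hmgb2 0.19. Spindle genes read above 0 in 25 of 29 cases, where 51.2% of all genes did, with a median of 0.13, against -0.08 in other A20 cells. Dlgap5, a spindle-assembly protein, stood at 70.6 against 48.6 CPM (0.54, 0.34 to 0.73), with -0.09 in other A20 cells. The kinesin Kif18b had the highest ratio of the 145 genes, 0.94 from 26 and 23 UMIs, with an interval of 0.08 to 1.82. Aspm read 0.38 and Tpx2 0.33.

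Other roles lay nearer to equal. The median of the kinase and cyclin list was 0.03, with Cdk1 at 0.10. Its highest member was Mastl, the Greatwall kinase that shields mitotic phosphorylation, at 13.7 against 8.16 CPM (0.75, 0.28 to 1.22, from 78 and 79 UMIs). Medians were 0.03 for the kinetochore list (Ska2 at 0.43), 0.03 for cytokinesis, -0.02 for the anaphase-promoting complex and checkpoint (Mad2l1bp at 0.59) and -0.03 for the passenger complex. Kif20a stood at 41.4 against 51.2 CPM (-0.30, -0.53 to -0.08). The tubulin and stathmin list had a median of -0.10, and Tuba1c read 195 against 233 CPM (-0.26). Outside the role lists, Cdkn3 stood at 96.0 against 43.9 CPM from 547 and 425 UMIs (1.13, 0.94 to 1.31). In other A20 cells it read 0.96.

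Histone transcripts of the Hist1h set read higher in G2/M cells of the TAK-981 library. The rule used these genes, since a G2/M cell's Hist1h rank had to lie below its G2/M rank. All Hist1h values here are therefore a description and no finding. The median score was 3.83 against 2.39 UMIs per 10000. Of 38 genes measured, 33 read above 0 and 8 at least 2-fold higher, where 51.2% and 2.48% of all genes did. The median log2 ratio was 0.55. On the same 38 genes the median in other A20 cells was 0.21, likewise a description. All 5 linker histone H1 genes of the set, chosen here after their values were seen, read above 0. Hist1h1e stood at 123 against 81.4 CPM (0.59), Hist1h1b at 82.0 against 61.6 CPM (0.41), Hist1h1d at 29.7 against 17.9 CPM (0.73), Hist1h1a at 15.8 against 8.68 CPM (0.86) and Hist1h1c at 14.6 against 11.7 CPM (0.32, interval -0.11 to 0.74). Histone genes with near-identical copies are uncertain one by one, and replication-dependent histone mRNAs lack the poly(A) tail by which these libraries were primed. The G2/M cells that also reached rank 0.8 on histone genes were 17.3% of the TAK-981 and 10.7% of the vehicle group, and their part in this difference was not tested.

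Interferon-stimulated genes read higher in G2/M cells after TAK-981 throughout the list. Of 38 measured in G2/M cells, 38 read higher in the TAK-981 library, 18 at least 2-fold and 31 with an interval above 0. The median log2 ratio was 0.93. Genes near 0 UMIs in the vehicle library, such as Rtp4 and Ifit1, passed the limit of 10 UMIs only through the TAK-981 library. The counts of higher genes are therefore partly set by that limit. Over all genes 2.48% read at least 2-fold higher, 12% had an interval above 0, and the median was 0.01. The list summed to 938 against 564 CPM. Isg15, a ubiquitin-like protein attached to others during antiviral responses, stood at 29.3 against 4.34 CPM (2.76, 2.26 to 3.28, from 167 and 42 UMIs). Of the 167, 20.4% sat in 1 cell. Usp18, the protease that removes ISG15 and damps interferon receptor signalling, stood at 24.1 against 3.10 CPM (2.96, 2.38 to 3.58). Transcription factors of the pathway were also measured. Irf7 stood at 41.3 against 11.8 CPM (1.81) and Irf9 at 25.5 against 9.51 CPM (1.42), while Stat2 was at 9.66 against 6.92 CPM (0.48, -0.06 to 1.02). Bst2, a surface restriction factor abundant in both libraries, read 217 against 194 CPM (0.16).

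The interferon ratios were lower in G2/M cells than in the other A20 cells. On the same 38 genes the medians were 0.93 in G2/M cells, 1.35 in all other A20 cells, 1.48 in S phase, 1.18 in G1/S and 1.27 in cells of no class. The ratio was lower in G2/M cells for 33 of 38 genes, where it was for 57.5% of all genes. The 33 include Rtp4, whose ratio in G2/M cells is a lower bound set by the floor of 3 counts. For Rtp4 the order is therefore not known. Of the 31 with at least 10 UMIs in each of the 4 sums compared, 13 had an interval of the difference below 0 and 0 above, where 6.6% and 5.12% of all genes did. Isg15 read 53.3 against 4.59 CPM in other A20 cells (log2 3.54), a difference from G2/M cells of -0.78 (-1.32 to -0.25). Usp18 differed by -0.84 (-1.48 to -0.21), Trim30a read 1.74 against 2.64, and Irf7 1.81 against 2.31. The antiviral effectors had few UMIs in G2/M cells. Their raw UMIs come from class sums of unlike size. G2/M cells summed to 5696354 UMIs against 26767682 in other A20 cells of the TAK-981 library, and 9677375 against 43333878 in the vehicle library. Mx1 had 8 and 0 UMIs (TAK-981 and vehicle), against 125 and 1 in other A20 cells. Ifit1 had 11 and 3 against 130 and 4, Ifit3 2 and 0 against 124 and 1, and Rtp4 17 and 0 against 165 and 5. Oas2, Oas3, Oasl2 and Rsad2 had 0 UMIs in G2/M cells of both libraries, which allows up to 3 UMIs in each sum.

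Levels within each library were compared next. In the TAK-981 library 40 of 44 interferon-stimulated genes measured read lower in G2/M than in other A20 cells, 10 at least 2-fold. Over all genes 62.5% read lower and 4.79% at least 2-fold lower. The median of the 44 was -0.57. In the vehicle library the median was -0.12 over 37 genes, and 0 passed 2-fold, where 4.24% of all genes read at least 2-fold lower. Cell by cell, at 4000 UMIs, G2/M cells of the TAK-981 library held a mean of 3.77 UMIs of the list, G1/S cells 4.25, cells of no class 5.03 and S phase cells 6.24. The median was 3 UMIs in each class, and the 90th percentile was 8 in G2/M, 9 in G1/S, 10 in no class and 13.4 in S phase cells, so the classes differed in their upper tail. At least 10 such UMIs were held by 22 G2/M cells (7.61%, 4.83 to 11.3%), 15 G1/S cells (6.55%, 3.71 to 10.6%), 106 cells of no class (11.2%, 9.24 to 13.3%) and 41 S phase cells (14.3%, 10.5 to 18.9%). In the vehicle library they were 2 G2/M cells (0.546%) and 17 other A20 cells (0.932%). The G2/M interval overlaps those of all 3 other classes, of the S phase class only narrowly.

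Host transcripts also differed between these groups, since natural killer markers summed to 7.92 CPM (TAK-981) and 1.34 CPM (vehicle) in other A20 cells. Ncr1, a receptor that defines natural killer cells, had 29 and 3 UMIs there and 0 and 0 in G2/M cells. With every A20 cell that held a UMI of the 18 host genes left out, the medians on the same 38 genes were 0.96 in G2/M cells and 1.35 in the others. The ratio was again lower in G2/M cells for 33, with Rtp4 again read at its bound.

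**Figure D3:**
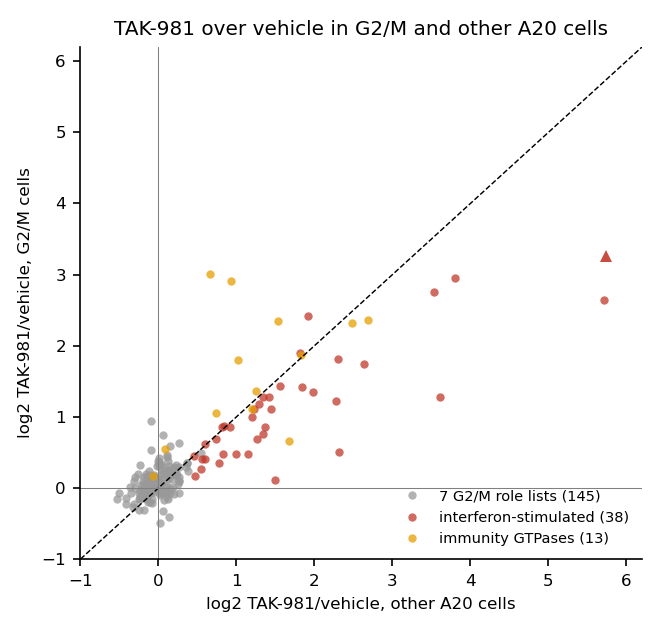
Log2 ratio of TAK-981 over vehicle in other A20 cells (horizontal) against that in G2/M cells (vertical), 1 point per gene, with the equality line dashed. Of the interferon-stimulated genes 33 of 38 lie under the line. A triangle marks Rtp4, counted in the 33, at 0 UMIs in G2/M cells of the vehicle library. It is drawn at its lower bound, so its place against the line is not known.

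Immunity GTPases, which interferon induces and which act on membranes of intracellular pathogens, read higher too. Of 16 genes 13 were measured in G2/M cells. Here too the limit of 10 UMIs could be passed through the TAK-981 library alone, as by Gbp7 with 31 and 7 UMIs. All 13 read higher in the TAK-981 library and 10 at least 2-fold, where 51.2% and 2.48% of all genes did, with a median of 1.79. On the same 13 genes the median in other A20 cells was 1.2. The ratio was higher in G2/M cells for 9 of 13, where it was for 42.5% of all genes. Of 11 with enough UMIs the interval of the difference lay above 0 for 2 and below 0 for 1, where it did for 5.12% and 6.6% of all genes. Ifi47 stood at 16.5 against 3.2 CPM (2.36, with 2.68 in other A20 cells) and Irgm1 at 8.25 against 1.65 CPM (2.32, with 2.48). Igtp was lower in G2/M cells, at 0.65 against 1.68. The large ratios rest on few cells. Iigp1 read 3.01 (2.1 to 4.05) from 57 and 12 UMIs in 12 and 5 cells, with 31.6% of the 57 in 1 cell, and 1.55 at a rank threshold of 0.9. In Gbp2 (1.79, from 145 and 71 UMIs) 1 cell held 30.3%, and in Gbp7 (2.91) 38.7% of the UMIs of the TAK-981 library. Gbp2b, which the list of 16 does not hold, read 3.22 from 33 and 6 UMIs, with 30.3% of the 33 in 1 cell.

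Across all genes with at least 20 UMIs in G2/M cells, 26 had an interval wholly beyond 2-fold higher in the TAK-981 library and 3 beyond 2-fold lower. Besides the GTPases, Isg15 and Usp18, the highest were Dao, Cfap53, Gimap4, Xaf1 and Zfp575. Dao, a D-amino acid oxidase, had 28 and 3 UMIs (3.99), and other A20 cells gave 3.82. The 28 came from 10 cells, with 39.3% in 1 of them. Xaf1, an interferon-induced apoptosis factor, had 82 and 26 (2.42, with 1.92 in other A20 cells), with 26.8% of the 82 in 1 cell. Gimap4, a GTPase of lymphocytes, had 18 and 5 (2.61, with -0.03 in other A20 cells), and Cfap53 24 and 5, of which 62.5% of the 24 sat in 1 cell. The 3 genes on the low side were Fos, Klk4 and Anxa10. Fos, a subunit of the AP-1 transcription factor, stood at 55.1 against 135 CPM (-1.29, -1.47 to -1.11), and at -1.21 in other A20 cells. Klk4, a secreted serine protease, stood at 37.2 against 91.2 CPM (-1.29, with -0.62 in other A20 cells). Anxa10, an annexin, stood at 8.60 against 26.5 CPM (-1.62, with -0.78).

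**Figure D4:**
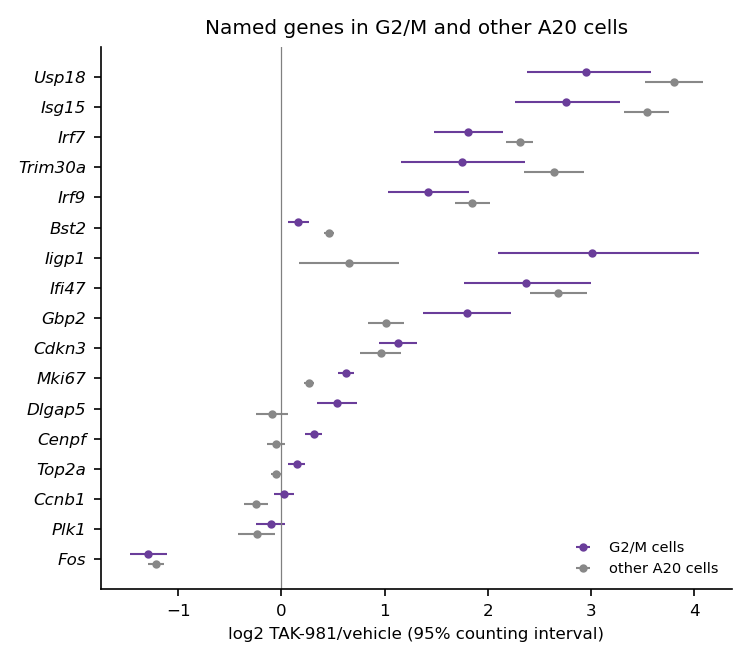
Log2 ratio of TAK-981 over vehicle with its 95% counting interval for a set of named genes, in G2/M cells (purple) and other A20 cells (grey). Usp18 and Isg15 lie further right in other A20 cells, Mki67, Dlgap5 and Cenpf further right in G2/M cells, and Fos lies left of 0 in both.

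Other immediate early genes, which respond fast to growth signals and to tissue handling, leaned the same way as Fos. Of 14 measured, 2 read above 0 in G2/M cells, where 51.2% of all genes did, and the median was -0.33. On the same 14 genes the median in other A20 cells was -0.45. Ier2 read 39.3 against 58.1 CPM (-0.56), Dusp1 12.1 against 19.4 CPM (-0.68) and Jun 54.4 against 66.4 CPM (-0.29). Atf3 went the other way at 9.66 against 5.48 CPM (0.82).

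MHC class I genes leaned higher and class II genes lower in the TAK-981 library. Of 21 class I and antigen processing genes 16 read above 0 and 12 had an interval above 0, where 51.2% and 12% of all genes did. The median was 0.29 against 0.30 in other A20 cells. Nlrc5, the transactivator of class I genes, stood at 11.9 against 3.2 CPM (1.90, with 0.96 in other A20 cells). The peptide transporter Tap1 stood at 87.1 against 56.9 CPM (0.61), the light chain B2m at 1050 against 794 CPM (0.40) and the heavy chain H2-K1 at 938 against 744 CPM (0.33). Of 8 class II genes 7 read below 0, where 48.8% of all genes did, with a median of -0.26 against -0.22, and Cd74 stood at 3312 against 3880 CPM (-0.23).

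The SUMO machinery, to which the drug's target belongs, stood near equal. Of 22 genes 16 read above 0 in G2/M cells, where 51.2% of all genes did, and the median was 0.08, against 0.16 in other A20 cells. Sumo3 read 137 against 96.0 CPM (0.52, with 0.55 in other A20 cells), and Ranbp2, a SUMO ligase of the nuclear pore, read 0.49. Sae1 and Uba2, the subunits of the SUMO-activating enzyme, both read -0.21. These are transcript levels and carry no information on SUMO attachment. Among B cell identity genes the median was -0.07, with Fcrla, an intracellular Fc receptor-like protein, at 111 against 52.0 CPM (1.10, with 0.94 in other A20 cells) and the inhibitory receptor Cd72 at 4.56 against 9.51 CPM (-1.06, with -0.41).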

How the data were processed

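Single-cell RNA was measured with the 10x Genomics Chromium 5' kit after dead cell removal, per the labels' protocols. The deposited files hold raw UMI counts for each gene and barcode as whole numbers, per the file headers and values. Cell Ranger 2.1.1 and Seurat 2 are named in the submitters' processing notes with no role given, and the genome build is not given in the sources used here. Rows that share a symbol were summed (28692 genes, 28625 symbols). The cells and the gene lists were chosen with earlier results of these data known.

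Counts were analysed in Python 3.11.15 with numpy 2.4.6, scipy 1.17.1, pandas 2.3.3, scanpy 1.11.5 and matplotlib 3.10.9. UMIs were summed over the cells of a class in a library (5696354 in G2/M cells of the TAK-981 and 9677375 in those of the vehicle library) and scaled to CPM. Log2 ratios carry exact conditional binomial 95% intervals, and a ratio against 0 uses a floor of 3 counts per sum. A gene counted as measured with at least 10 UMIs in both groups together, and called genes are those past 2-fold. With 1 library per arm no p-value was computed. A difference of 2 such ratios carries a normal-approximation 95% interval and needs at least 10 UMIs in each of the 4 sums. Cells vary more than single UMIs do, which these intervals ignore, so they are too narrow. Thinning to 4000 UMIs used a fixed seed and left out 0 cells. Of 34 lists, those of the 7 mitotic roles form the 145 genes outside the rule. Named genes were the 8 rule genes, list members, the 10 genes highest and 10 lowest between libraries (at least 20 UMIs, interval beyond 2-fold), and the 15 highest and 10 lowest between G2/M and other A20 cells (at least 50 UMIs in each library, the smaller ratio of both libraries). Scrublet marked 2 and 1 cells, 0 of them G2/M cells, so doublets were in effect left in. Promoters were taken from RefSeq (GRCm38.p6) by symbol and searched for TTTGAA and CCAAT on both strands. The ratio script was tested on simulated data. Of 12 alternatives, 11 were planned and 1 was added after seeing the data. Values of some list members are not reported here.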

Additional observations from a re-analysis of the deposited data

How the results depend on the processing

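No paired analysis was possible because each arm has 1 library and the labels give no replicate numbers. No ratio changed direction. The G2/M share, 16.5% (TAK-981) and 16.7% (vehicle), did not keep its order between libraries: it was 17.5% and 16.3% with the mitochondrial limit at 20%, and 16.3% and 15.7% without the 5% of cells with the most UMIs. The share of G2/M cells followed the rank threshold by construction, at 10.5% (TAK-981) and 8.58% (vehicle) with a threshold of 0.9 and 20.4% and 21.2% with 0.7. With each cell thinned to 4000 UMIs it was 14.4% in the TAK-981 library. The number of genes at least 2-fold higher in the TAK-981 library was 259 of 10429 measured, and 401 of 8428 after thinning. What lay behind this rise was not tested. With at least 50 UMIs required the number was 63, where genes at least 2-fold lower numbered 29 against 190. The excess of higher over lower genes depended on the mitochondrial limit. With the limit at 5%, 223 genes read at least 2-fold higher and 223 lower, and with it at 20%, 288 and 165. Over all alternatives run, the interferon median between libraries lay from 0.80 to 0.96, the median of the mitotic genes outside the rule between libraries from 0.03 to 0.15, and their median in G2/M over other A20 cells from 0.64 to 0.85. Leaving out cells with a host transcript, chosen after seeing the data, gave shares of 16.4% and 16.8% and an interferon median of 0.96. Among single genes, Gbp2b read 4.74 and Iigp1 1.55 at a threshold of 0.9, Klk4 -1.04 at 0.7, and Fos -1.08 without the 5% of cells with the most UMIs.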

Other observations

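Several other gene groups were measured in G2/M cells and are given here by their ratio of TAK-981 over vehicle, beside 51.2% of all genes above 0 and 48.8% below. Of 10 BCL2 family genes 8 read above 0, with a median log2 ratio of 0.26. Bcl2l11, the pro-apoptotic BIM, stood at 89.9 against 45.5 CPM (0.98, with 1.09 in other A20 cells). Bcl2l1, the anti-apoptotic BCL-XL, stood at 325 against 196 CPM (0.73, with 0.53). Bid read -0.33, and Bmf had 5 and 18 UMIs. Of 14 p53 target genes 9 read above 0, with a median of 0.04, near the share of all genes. Gadd45a, a growth-arrest gene, had 50 and 37 UMIs (1.2, 0.56 to 1.85, with 0.41 in other A20 cells). Cdkn1a (p21) read 0.40 from 24 and 31 UMIs and Mdm2 0.04. Of 17 DNA repair genes 10 did, with a median of 0.08, again near that share.

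Among stress genes, 1 of 9 heat shock genes read above 0, where 51.2% of all genes did, with a median of -0.16, and the co-chaperone Dnajb1 stood at 82.3 against 136 CPM (-0.73, with -0.52 in other A20 cells). Hspa8 read -0.27. Of 17 hypoxia and glycolysis genes 5 read above 0 (median -0.17), and of 12 integrated stress response genes 3 did (median -0.10). Calr, an endoplasmic reticulum chaperone that also serves class I loading, stood at 412 against 273 CPM (0.60).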
